A study of Homo sapiens with 26 samples.

Results

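Zinc finger genes of chromosome 19 were followed through an arsenite stress in HCT116 cells, a human colorectal carcinoma line. A gene was a member when it was protein-coding, its symbol began with ZNF, the count files placed it on chromosome 19, and its level exceeded 5 CPM (counts scaled to a common total of protein-coding counts) in 12 or more of the 24 libraries with mCherry-IGF2BP1. The rule found 84 members among 249 annotated protein-coding ZNF genes of the chromosome and 63086 genes in the files. Of the 165 genes that were not members, 61 had no count in any of the 24 libraries, 142 exceeded 5 CPM in no library and 23 did so in 1 to 11 libraries. The comparisons were fitted over 10226 protein-coding genes that passed the same level filter, and the members are 84 of those.

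All 24 libraries came from HCT116 cells carrying Tet-OsTIR1-PURO and knockouts of IGF2BP2 and IGF2BP3, into which mCherry-IGF2BP1, an RNA-binding protein, was delivered by lentivirus under the hPGK promoter. The transgene was WT, S181E or Y396E, in which a serine or a tyrosine of a disordered linker is replaced by glutamate, or RQ, in which arginines of the first linker are replaced by glutamine. Each population was given PBS (control) or 500 µM sodium arsenite for 2 h, in 3 dishes plated independently for each of the 8 groups, and parental HCT116 cells gave 1 library for each treatment. The knockouts were single-cell clones and the transgenic populations were sorted pools of narrow mCherry gates, so a difference between populations can also hold a difference between pools. Poly(A) RNA was taken from clarified lysate, so each level is a share of its library, and in such bulk libraries fewer cells and less RNA per cell cannot be told apart.

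C2H2 zinc finger proteins form the largest family of human DNA-binding factors. Each finger is a short loop held by a zinc ion that reads a few bases, and proteins with many fingers read longer sites. Most of the genes on chromosome 19 lie in clusters that arose by tandem duplication, and most of their proteins begin with a KRAB domain that recruits TRIM28 and the histone methyltransferase SETDB1 to silence transposable elements. Arsenite is an oxidative and proteotoxic stress that stalls translation and induces stress granules.

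The 24 libraries held 22508145 to 50834401 counts. Y396E arsenite replicate 3 stood apart, with counts on 13897 genes against 20850 to 23473 in the other libraries and with 2 members at 0. The Y396E counts over all members and many single changes are given with and without it. The other Y396E values, among them those of clusters, neighbours, fingers, the KRAB stretch and co-repressors, use it. All groups share 1 fit, so its spread also enters the SE and calls of WT, RQ and S181E. Replicates of the other groups differed over the members by a median SD of 0.07 to 0.10 on the log2 scale, and those of Y396E in arsenite by 0.219, or 0.0661 without replicate 3. Of 9 colon epithelial markers 6 had a median above 5 CPM, none of 4 leukocyte or 3 endothelial markers did, and 1 of 4 fibroblast markers did. The colon epithelial sum was 2801.8 to 3641.0 CPM in control and 4296.5 to 5452.4 CPM in arsenite. Its part in the results was not tested. IGF2BP1 was measured at 0.344 and 0.634 CPM in the parental libraries and at 10.5 to 20.2 CPM in control and 27.4 to 47.1 CPM in arsenite in the transgenic ones. IGF2BP2 and IGF2BP3 transcripts were still counted in the knockout background, at 61.2 to 90.4 and 107.0 to 164.7 CPM, and the RNA level does not check a knockout that shifts the reading frame.

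The members were low in level. Their mean over the 24 libraries ran from 5.19 to 187 CPM with a median of 10.8, against a median of 36.8 CPM over the tested genes. Their exonic length had a median of 4549 bases (1162 to 14012) against 3977, and their exonic GC content a median of 43.7% (35.3 to 70.9) against 48.7%. A C2H2 pattern was found 1 to 26 times in the longest coding sequence of each member, with a median of 11. A stretch matching a KRAB pattern was present in 59 of the 84 members and in 198 of all 249 annotated genes. The pattern missed some domains: ZNF180, ZNF473 and ZNF714 were read as having none.

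Per exonic kilobase the members lay between 0.51 and 48.5 CPM with a median of 2.3. The highest was ZNF146 at 48.5 CPM per kilobase, a protein made almost only of fingers. ZNF428 followed at 33.7, ZNF580 at 21.5, ZNF581 at 20.9 and ZNF787 at 17.8 CPM per kilobase, and the pattern matched none of these 5 as KRAB. Reads were counted only where they mapped to 1 place and 1 gene. In 54 members no exonic window of 100 bases recurred elsewhere in the genome, and in 5 members over 5% of windows did: ZNF587 (13.5%), ZNF324B (11%), ZNF552 (10.3%), ZNF765 (6.46%) and ZNF324 (6.11%). Over 10% of the exonic length overlapped another gene on the same strand in ZNF324 (25.1%), ZNF653 (21.9%), ZNF358 (16.4%) and ZNF805 (13.5%). The levels of these genes are uncertain to that extent.

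The level rule kept some members through arsenite alone. ZNF823, ZNF14, ZNF888 and ZNF548 exceeded 5 CPM in 12 arsenite and 0 control libraries, ZNF224 in 12 and 1, and ZNF211 in 11 and 1. These genes had to be higher in arsenite to be members, and their rise counts as no support for a direction of the group. No member passed in the same way through control libraries. Just outside the rule were ZNF446, ZNF543, ZNF547 and ZNF554, each above 5 CPM in 11 libraries, all of them arsenite libraries.

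Arsenite moved the members in both directions. In WT cells 28 members rose and 18 fell, with called meaning an adjusted p under 0.05 (edgeR's quasi-likelihood test, Benjamini-Hochberg over the 10226 genes) and a fold above 1.2. The called share of members was 54.8%, against 70.8% of all tested genes (35.7% higher, 35.2% lower). The members were lower in level than the tested genes, and shares at a matched level were not taken. The median change over the members was 0.085 on the log2 scale, beside -0.013 over all tested genes and -0.059 over 620 other tested genes of chromosome 19. Leaving out the 6 members that passed through arsenite libraries, 22 rose and 18 fell, with a median of 0.02. The split depended on scaling. Library totals alone gave 37 higher and 13 lower with a member median of 0.254 beside an all-gene median of 0.156. A correction for GC content and length gave 21 higher and 33 lower with medians of -0.222 and -0.194. Its offsets already held the library scaling, which was then applied again, so that all genes shifted together. Its counts higher and lower hold that shift as well as GC content and length. Relative to all genes the member median was 0.098 in the main fit, 0.098 with library totals alone and -0.029 with the correction.

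The summed level of the members in WT was 1421.7 ± 37.6 CPM in control and 1425.5 ± 13.8 CPM in arsenite (SD, n = 3), with overlapping ranges of 1387.8 to 1462.2 and 1416.5 to 1441.4. The ranges also overlapped in RQ and S181E. In Y396E they did not, at 1400.9 to 1431.9 CPM in control and 1358.9 to 1374.3 CPM in arsenite. The mean sum there went from 1416.8 to 1368.8 CPM. ZNF146 alone went from 222.2 to 138.6 CPM, a larger drop than that of the sum, which is thus no fall shared by the members. Within the WT sum single members changed by 1.81 (ZNF823) to -1.29 (ZNF587B) on the log2 scale.

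ZNF823, a KRAB-type gene with 15 fingers, had the largest rise in WT. Its control libraries read 2.28, 3.17 and 2.57 CPM and its arsenite libraries 9.59, 9.23 and 9.1 CPM, a log2 change of 1.81 (SE 0.136, adjusted p = 1.23e-11). ZNF296, a factor without a KRAB stretch that is known from mouse work on reprogramming, went from 7.8, 8.12 and 8.18 CPM to 26.9, 25.0 and 27.8 CPM (log2 1.73, SE 0.082). ZNF548 went from 3.87, 3.67 and 3.98 CPM to 12.3, 12.1 and 12.2 CPM (log2 1.67, SE 0.234). In all 3 genes every arsenite library lay far above every control library, and the groups were likewise apart in 84.5% of tested genes. ZNF823 and ZNF548 are among the members that entered through arsenite.

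The promoters of these 3 genes are shown so that their letters can be set beside the response. Sequences are RefSeq on GRCh38.p14, 250 bases before the start and 30 after, read 5′ to 3′ on the gene's strand, with CCAAT and GGGCGG on either strand in capitals.
ZNF823, chr19:11738917-11739196, minus strand: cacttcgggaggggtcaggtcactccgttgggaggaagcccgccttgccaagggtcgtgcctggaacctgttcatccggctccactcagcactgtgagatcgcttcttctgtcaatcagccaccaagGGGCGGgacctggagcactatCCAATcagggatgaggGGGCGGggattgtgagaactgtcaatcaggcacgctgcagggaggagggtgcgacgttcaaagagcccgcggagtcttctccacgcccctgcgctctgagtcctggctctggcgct
ZNF296, chr19:45076449-45076728, minus strand: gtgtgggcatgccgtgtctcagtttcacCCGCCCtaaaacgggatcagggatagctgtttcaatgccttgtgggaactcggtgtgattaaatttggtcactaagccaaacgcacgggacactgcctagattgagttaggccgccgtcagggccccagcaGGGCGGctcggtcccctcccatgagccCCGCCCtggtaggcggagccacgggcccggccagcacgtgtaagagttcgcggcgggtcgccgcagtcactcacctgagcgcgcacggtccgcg
ZNF548, chr19:57389604-57389883, plus strand: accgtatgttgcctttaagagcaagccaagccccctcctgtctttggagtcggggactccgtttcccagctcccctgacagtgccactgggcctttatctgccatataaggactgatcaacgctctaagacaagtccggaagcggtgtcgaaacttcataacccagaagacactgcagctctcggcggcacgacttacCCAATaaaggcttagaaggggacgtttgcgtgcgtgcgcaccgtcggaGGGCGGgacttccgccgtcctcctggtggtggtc
Each of the 3 held GGGCGG, and ZNF823 and ZNF548 also held CCAAT. Both motifs were common in the table of promoters, as given further on.

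Another 7 genes completed the leading rises. ZNF627 rose from 6.03, 6.18 and 5.6 CPM to 14.7, 18.1 and 17.0 CPM (log2 1.49). ZNF700 rose from 6.3, 6.64 and 6.8 CPM to 17.4, 20.1 and 17.5 CPM (log2 1.48). Both lie in the cluster of ZNF823 at 11.5 to 12.6 Mb, and neither overlapped between treatments. ZNF57 went from 6.43, 6.43 and 8.04 CPM to 18.3, 17.8 and 19.5 CPM (log2 1.41). Its neighbour ZNF77 went from 7.43, 8.74 and 6.59 CPM to 19.2, 16.8 and 21.2 CPM (log2 1.34). These are the only members of the first cluster, and they moved by nearly the same amount. ZNF14 went from 3.56, 3.71 and 3.98 CPM to 8.79, 8.72 and 8.66 CPM (log2 1.22). ZNF473, whose product acts with the U7 ribonucleoprotein in processing the 3′ ends of histone transcripts, went from 14.5, 14.4 and 13.6 CPM to 29.3, 31.1 and 32.1 CPM (log2 1.12). ZNF224, described as a repressor of the aldolase A gene, went from 3.38, 3.46 and 5.39 CPM to 8.63, 8.34 and 8.45 CPM (log2 1.06). In each of these the lowest arsenite library lay above the highest control library, and ZNF14 and ZNF224 are again members through arsenite.

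At a fold above 2, 12 members rose in WT (11.2% of all tested genes) and 1 fell (4.3%), and that member was ZNF587B. Of the 12 rises 5 were of genes that the level rule kept through arsenite alone, and 7 were not. Its control libraries read 19, 18.0 and 23.6 CPM and its arsenite libraries 8.82, 8.65 and 7.36 CPM (log2 -1.29, SE 0.112, adjusted p = 1.56e-10). ZNF749 fell from 7.61, 6.97 and 10.5 CPM to 5.39, 4.35 and 5.09 CPM (log2 -0.76, SE 0.199). ZNF264 fell from 18.2, 17.8 and 20.5 CPM to 12.4, 10.6 and 11 CPM (log2 -0.74, SE 0.127). All 3 are KRAB-type genes of the last cluster, and none overlapped between treatments.

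Their promoters are printed beside those of the leading rises, with the same marks. The RefSeq start of ZNF587B lies inside the span that the count files give for the gene.
ZNF587B, chr19:57830049-57830328, plus strand: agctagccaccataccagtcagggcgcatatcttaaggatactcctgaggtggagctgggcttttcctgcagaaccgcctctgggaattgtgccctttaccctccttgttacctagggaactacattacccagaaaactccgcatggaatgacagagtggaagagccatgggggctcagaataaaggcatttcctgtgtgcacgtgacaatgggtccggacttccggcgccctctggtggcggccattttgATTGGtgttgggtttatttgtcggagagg
ZNF749, chr19:57435075-57435354, plus strand: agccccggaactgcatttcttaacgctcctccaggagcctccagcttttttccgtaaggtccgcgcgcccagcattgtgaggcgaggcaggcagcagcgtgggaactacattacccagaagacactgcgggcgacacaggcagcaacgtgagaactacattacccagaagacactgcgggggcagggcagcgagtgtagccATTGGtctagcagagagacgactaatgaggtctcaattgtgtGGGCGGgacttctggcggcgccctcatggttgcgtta
ZNF264, chr19:57191250-57191529, plus strand: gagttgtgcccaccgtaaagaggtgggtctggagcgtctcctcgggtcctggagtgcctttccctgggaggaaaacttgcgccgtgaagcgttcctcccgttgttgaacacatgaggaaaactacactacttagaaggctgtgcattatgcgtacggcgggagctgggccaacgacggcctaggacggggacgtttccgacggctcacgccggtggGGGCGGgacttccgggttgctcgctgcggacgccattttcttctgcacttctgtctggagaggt
CCAAT was present in ZNF587B and ZNF749, and GGGCGG in ZNF749 and ZNF264. The promoters shown were picked by the response of their genes, and counts over all matched members that rose or fell are given further on. A link between letters and direction was not tested.

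ZNF587, which lies next to ZNF587B on the same strand, fell from 14.6, 14.9 and 14.5 CPM to 8.9, 8.75 and 8.79 CPM (log2 -0.74, SE 0.112). The protein of ZNF587 is 65.9% identical to that of ZNF587B, and a read is counted only where it maps to a single place. Each of 14 fingers of ZNF587B was set beside the in-frame stretch of the ZNF587 coding sequence with the fewest differing bases. Finger numbers are those of ZNF587B, and the ZNF587 line carries the number of its partner. The finger below is the one with the most differing bases among the 14, 23 of 84. It was picked for that, with differing bases in capitals.
ZNF587B finger 4, chr19:57841572-57841655, plus strand: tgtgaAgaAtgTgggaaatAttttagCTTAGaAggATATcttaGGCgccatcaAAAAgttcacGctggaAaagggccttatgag
ZNF587 finger 4, chr19:57859304-57859387, plus strand: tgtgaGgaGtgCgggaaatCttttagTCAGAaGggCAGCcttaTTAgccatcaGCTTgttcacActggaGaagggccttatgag
The finger with the fewest differing bases had 11 of 84.
ZNF587B finger 2, chr19:57841404-57841487, plus strand: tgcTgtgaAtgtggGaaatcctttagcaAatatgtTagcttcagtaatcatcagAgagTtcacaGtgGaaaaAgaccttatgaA
ZNF587 finger 2, chr19:57859136-57859219, plus strand: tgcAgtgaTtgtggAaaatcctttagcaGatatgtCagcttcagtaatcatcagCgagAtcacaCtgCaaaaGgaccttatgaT
Over the 14 fingers 244 of 1176 bases differed, with at least 11 differing bases in each finger.

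The remaining leading falls were smaller. ZNF358 fell from 26.0, 29.8 and 29.3 CPM to 17.9, 15.9 and 17.8 CPM (log2 -0.72). ZNF121 fell from 75.7, 70.0 and 91.8 CPM to 54.1, 46.2 and 52.5 CPM (log2 -0.64). ZNF134 fell from 7.58, 6.72 and 9.13 CPM to 5.23, 4.88 and 5.19 CPM (log2 -0.62). Groups did not overlap in these 3 genes, and ZNF358 shares 16.4% of its exonic length with another gene. ZNF562 fell from 39.8, 38.8 and 43.1 CPM to 27.2, 26.4 and 26.7 CPM (log2 -0.60). ZNF714 fell from 17.2, 16.3 and 17.6 CPM to 10.7, 12 and 11 CPM (log2 -0.60). ZNF544 fell from 40.5, 43.6 and 45.8 CPM to 30.7, 29.0 and 28.8 CPM (log2 -0.55). These 3 did not overlap either, and fell by similar amounts from different levels. The 20 leading genes kept their call and direction in every alternative in which they were tested, other than the fold threshold of 2.

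**Figure D1:**
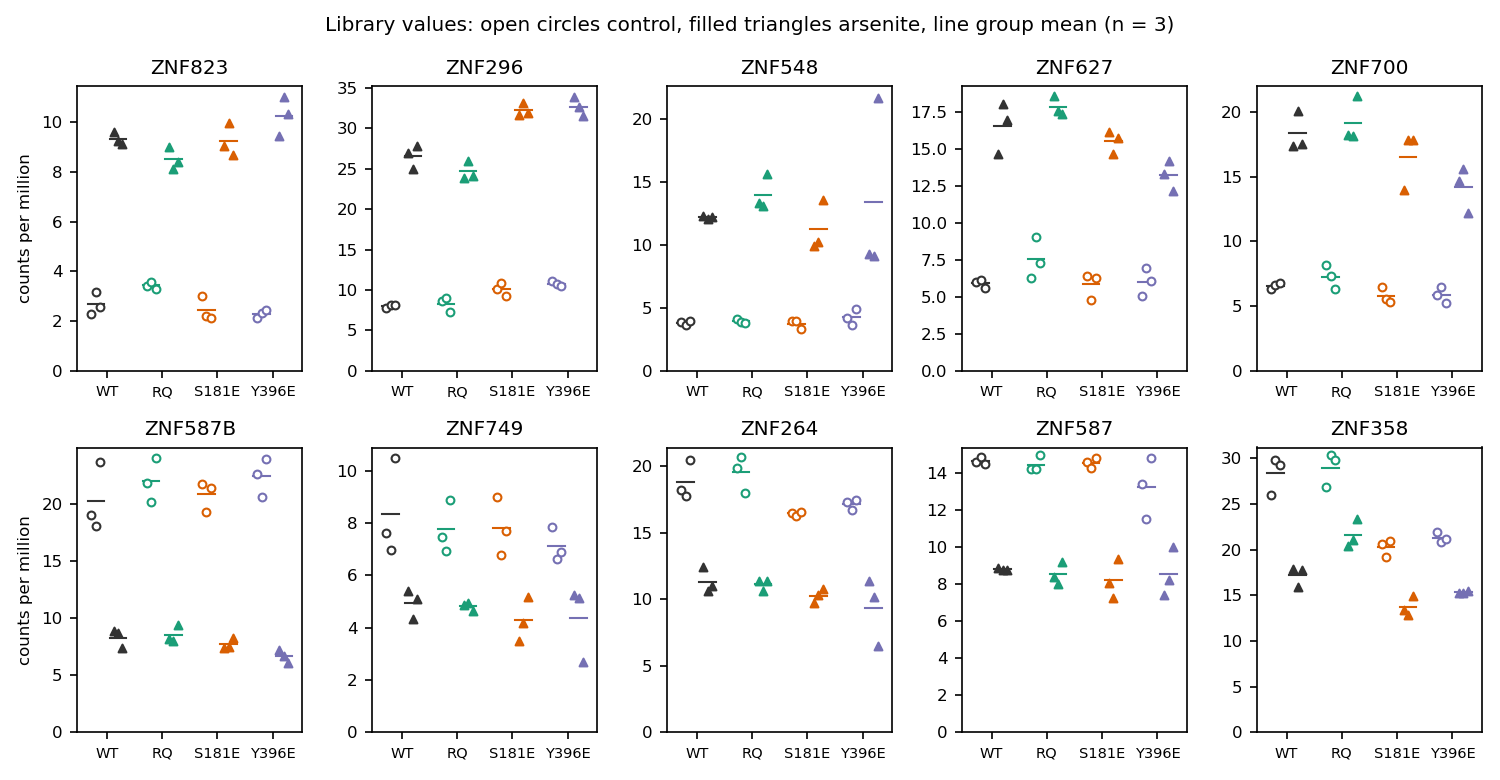
CPM (linear axes that start at 0) of 5 members that rose (top) and 5 that fell (bottom) in each of the 24 libraries, control and arsenite side by side for the 4 populations. Open circles are control and filled triangles arsenite libraries, lines are group means, and the control and arsenite points of ZNF823 (2.28 to 3.17 and 9.1 to 9.59 CPM in WT) and of ZNF587B (18.0 to 23.6 and 7.36 to 8.82 CPM in WT) stand apart. ZNF823 and ZNF548 are members through arsenite alone.

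The other populations have their own control and arsenite libraries, so agreement with WT is a repeat of the measurement. In RQ 29 members rose and 21 fell, 59.5% in all, beside 71.4% of all tested genes (36.4% higher, 35.0% lower). In S181E 27 rose and 17 fell, 52.4% beside 64.2% (31.5% higher, 32.7% lower). In Y396E 27 rose and 22 fell, 58.3% beside 65.2% (32.6% higher, 32.7% lower). Without Y396E arsenite replicate 3, 30 rose and 23 fell in Y396E (all genes 65.4%), with 41 members called in both fits. Member medians were 0.024 in RQ, 0.086 in S181E and 0.056 in Y396E, beside all-gene medians of -0.004, -0.027 and -0.024. Under the GC and length correction the 3 member medians were -0.286, -0.035 and -0.045, beside all-gene medians of -0.196, -0.086 and -0.09. Across the 84 members the changes in WT had a Spearman correlation of 0.961 with those in RQ, 0.96 with S181E and 0.878 with Y396E (0.955 without replicate 3), where all tested genes gave 0.986, 0.947 and 0.917. The points share base composition and length between populations, and no p is attached.

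In all 4 populations 22 members were called higher (26.9% of tested genes) and 13 lower (25.6%). Leaving out the genes that passed through arsenite alone the counts were 16 and 13. Without Y396E arsenite replicate 3 they were 24 and 14 over all members. The 22 were ZNF57, ZNF77, ZNF627, ZNF823, ZNF700, ZNF14, ZNF574, ZNF224, ZNF227, ZNF296, ZNF473, ZNF175, ZNF600, ZNF888, ZNF160, ZNF845, ZNF628, ZNF579, ZNF304, ZNF548, ZNF211 and ZNF274. The 13 were ZNF358, ZNF121, ZNF562, ZNF714, ZNF146, ZNF765, ZNF580, ZNF264, ZNF749, ZNF587B, ZNF587, ZNF544 and ZNF584. Another 21 members were called in none and 28 in 1 to 3 populations.

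The rise of ZNF823 was seen in each population. In arsenite it read 8.13 to 8.98 CPM in RQ, 8.69 to 9.95 in S181E and 9.45 to 11 in Y396E, against 3.3 to 3.57, 2.12 to 3.02 and 2.11 to 2.44 CPM in control. The log2 changes were 1.31, 1.91 and 2.16. Control and arsenite libraries were apart in each population, as in 84.9%, 82.7% and 71.0% of tested genes. For ZNF823 the level rule had fixed this, since it was over 5 CPM in 12 arsenite and 0 control libraries. Its rise in the other populations is therefore no repeat. ZNF296 changed by 1.57, 1.68 and 1.60 in the same order (1.63 in Y396E without replicate 3). ZNF274, a KRAB protein that binds the 3′ ends of zinc finger genes and recruits SETDB1, changed by 0.94 in WT. In RQ, S181E and Y396E it changed by 0.86, 1.29 and 1.14 (1.025 in Y396E without replicate 3). Its WT libraries moved from 6.24, 7.83 and 6.73 CPM to 11.9, 15.0 and 12.7 CPM. ZNF304, a KRAB protein, changed by 0.77, 0.71, 0.88 and 0.72 (0.52 in Y396E without replicate 3). ZNF175, reported to repress the HIV promoter, changed by 0.91, 1.08, 0.62 and 0.61 (0.73 in Y396E without replicate 3). Each of these was called in each population.

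The value of ZNF548 in Y396E depended on the library that stood apart. Its arsenite libraries there read 9.28, 9.15 and 21.7 CPM, with replicate 3 far above the others. Its change was 1.65 with that library and 1.10 without it. ZNF587B changed by -1.36 (RQ), -1.43 (S181E) and -1.75 (Y396E), and by -1.69 in Y396E without replicate 3. ZNF146 had the highest level of all members and fell in every population. It read 198.1, 206.5 and 220.9 CPM in WT control and 159.5, 167.3 and 154.4 CPM in arsenite. The change was -0.38 in WT cells, -0.47 in RQ cells, -0.56 in S181E cells and -0.68 in Y396E cells (-0.64 without replicate 3), and scaling by library totals alone ended the WT call.

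A single member was called in opposite directions, and it is named because of that. ZNF430 read 6.85, 5.99 and 5.45 CPM in RQ control and 7.78, 9.33 and 9.34 CPM in RQ arsenite (log2 0.54, adjusted p = 0.00221). In Y396E it read 6.47, 6.86 and 7.35 CPM in control and 5.76, 5.95 and 4.06 CPM in arsenite (log2 -0.39, adjusted p = 0.0224). Without replicate 3 the change in Y396E was -0.23 and was not called. The difference between RQ and Y396E was not tested.

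**Figure D2:**
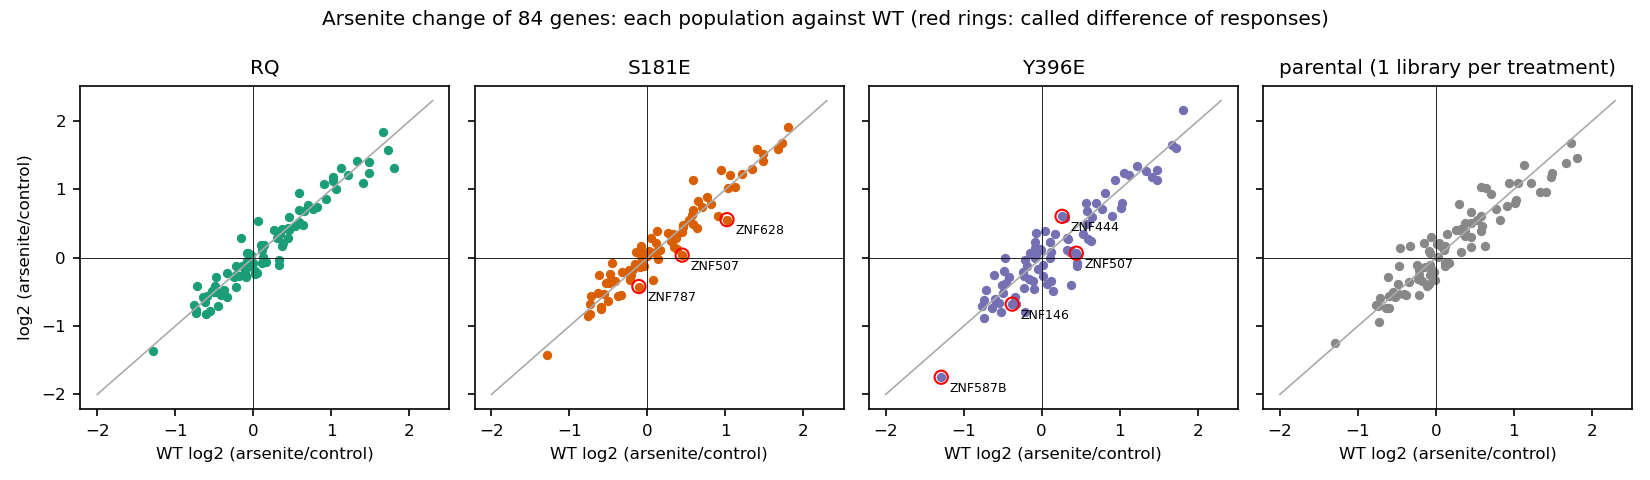
Log2 arsenite change of each member in RQ, S181E, Y396E and the parental pair (vertical axes) against that in WT (horizontal axis), with red rings for called differences of responses. Points lie along the diagonal, with Spearman correlations of 0.961, 0.96, 0.878 and 0.933 over 84 members.

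The parental pair, 1 library per treatment and without a test, moved the same way. All 28 members called higher in WT had a parental ratio above 0 (99.0% over all genes), and 17 of 18 called lower had one below 0 (98.6%). The exception was ZNF324B, with a repeat share of 11%. The parental median log2 ratio was 0.167 over the members and -0.032 over all tested genes. ZNF823 read 3.34 and 9.16 CPM in the parental pair, ZNF296 8.68 and 27.7, ZNF473 20.0 and 51.0, and ZNF587B 16.1 and 6.76 CPM. These cells carry no transgene and no knockout.

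Position along the chromosome was taken from the count files. Annotated ZNF genes with starts less than 1 Mb apart were joined, which gave 16 clusters, 13 of them with members. Among all tested genes 35.7% rose and 35.2% fell in WT, and 36.4% and 35.0% in RQ. In S181E 31.5% rose and 32.7% fell, and in Y396E 32.6% and 32.7%. Cluster counts include members that passed the level rule through arsenite alone. The first cluster (chr19:2819868-2944971) had 2 members, and both rose, with a median of 1.37 in WT. The cluster at chr19:11483429-12633840 had 6 members of 26 annotated genes, 4 risen and 0 fallen in WT, with a median of 1.03. ZNF823, among its risers, passed through arsenite alone. Its members ZNF653 and ZNF791 were not called, the latter at -0.22. In Y396E the same cluster had 3 higher and 1 lower with a median of 0.71, and in RQ and S181E 4 and 0 with medians of 0.88 and 1.05. Under the GC and length correction its WT median was 0.76 with 3 higher and 1 lower. Relative to all genes its WT median was 0.956 in that fit and 1.047 in the main fit.

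The cluster at chr19:7069703-9768738 had 10 members, of which 0 rose and 3 fell in WT (35.7% and 35.2% of all tested genes), with a median of -0.09. The fallen genes were ZNF358, ZNF121 and ZNF562. In RQ 0 rose and 3 fell (36.4% and 35.0% of all tested genes). In S181E and in Y396E 0 rose and 4 fell (31.5% and 32.7%, and 32.6% and 32.7%). With library totals alone 2 of its members rose and 3 fell in WT, and the median turned to 0.08.

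The cluster at chr19:51571283-53580269 had 16 members, 15 with the KRAB stretch. In WT 6 rose, 1 fell (35.7% and 35.2% of all tested genes) and the median was 0.11. Under the GC and length correction the WT median was -0.26 with 4 higher and 5 lower. Relative to all genes these medians were 0.121 and -0.068. The risers included ZNF888 (3.34 to 3.49 CPM in control, 6.67 to 7.45 in arsenite, log2 1.03), ZNF175 and ZNF160 (6.8 to 7.93 and 11.4 to 12.7 CPM, log2 0.70). Of these risers ZNF888 passed the level rule through arsenite alone. The fallen gene was ZNF765 (7.54 to 9.31 and 5.93 to 6.23 CPM, log2 -0.51). The last cluster (chr19:55476617-58481230) held 26 members of 59 annotated genes and both extremes of one neighbourhood. In WT 8 rose and 10 fell, near the all-gene shares, with a median of -0.13 (0.04 with library totals alone). Its risers ZNF548 and ZNF211 passed through arsenite alone. ZNF548 and ZNF749 are consecutive members on the same strand, and changed by 1.67 and -0.76.

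The other clusters were small or mixed. At chr19:19668839-24129968 only 6 of 37 annotated genes were members, with ZNF14 up, ZNF714 down and a median of 0.10. At chr19:43525497-45076478, 3 of 8 members rose (ZNF224, ZNF227, ZNF296) and 2 fell (ZNF576 at -0.53, ZNF428 at -0.48). ZNF14 and ZNF224 passed the level rule through arsenite alone. At chr19:36182276-37817300 ZNF146 was the 1 called gene of 4 members. ZNF507, ZNF302 and ZNF473 were each the single member of their cluster and rose in WT, by 0.45, 0.46 and 1.12. ZNF333, alone in its cluster, changed by 0.17 and was not called. Of the pair ZNF574 and ZNF526, the first rose by 0.82 and the second changed by -0.07. With a gap of 0.5 Mb the highest and lowest medians among clusters of 5 or more members were 1.034 and -0.414, and with a gap of 2 Mb 0.112 and -0.027, so how far the clusters differ depends on where they are split.

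**Figure D3:**
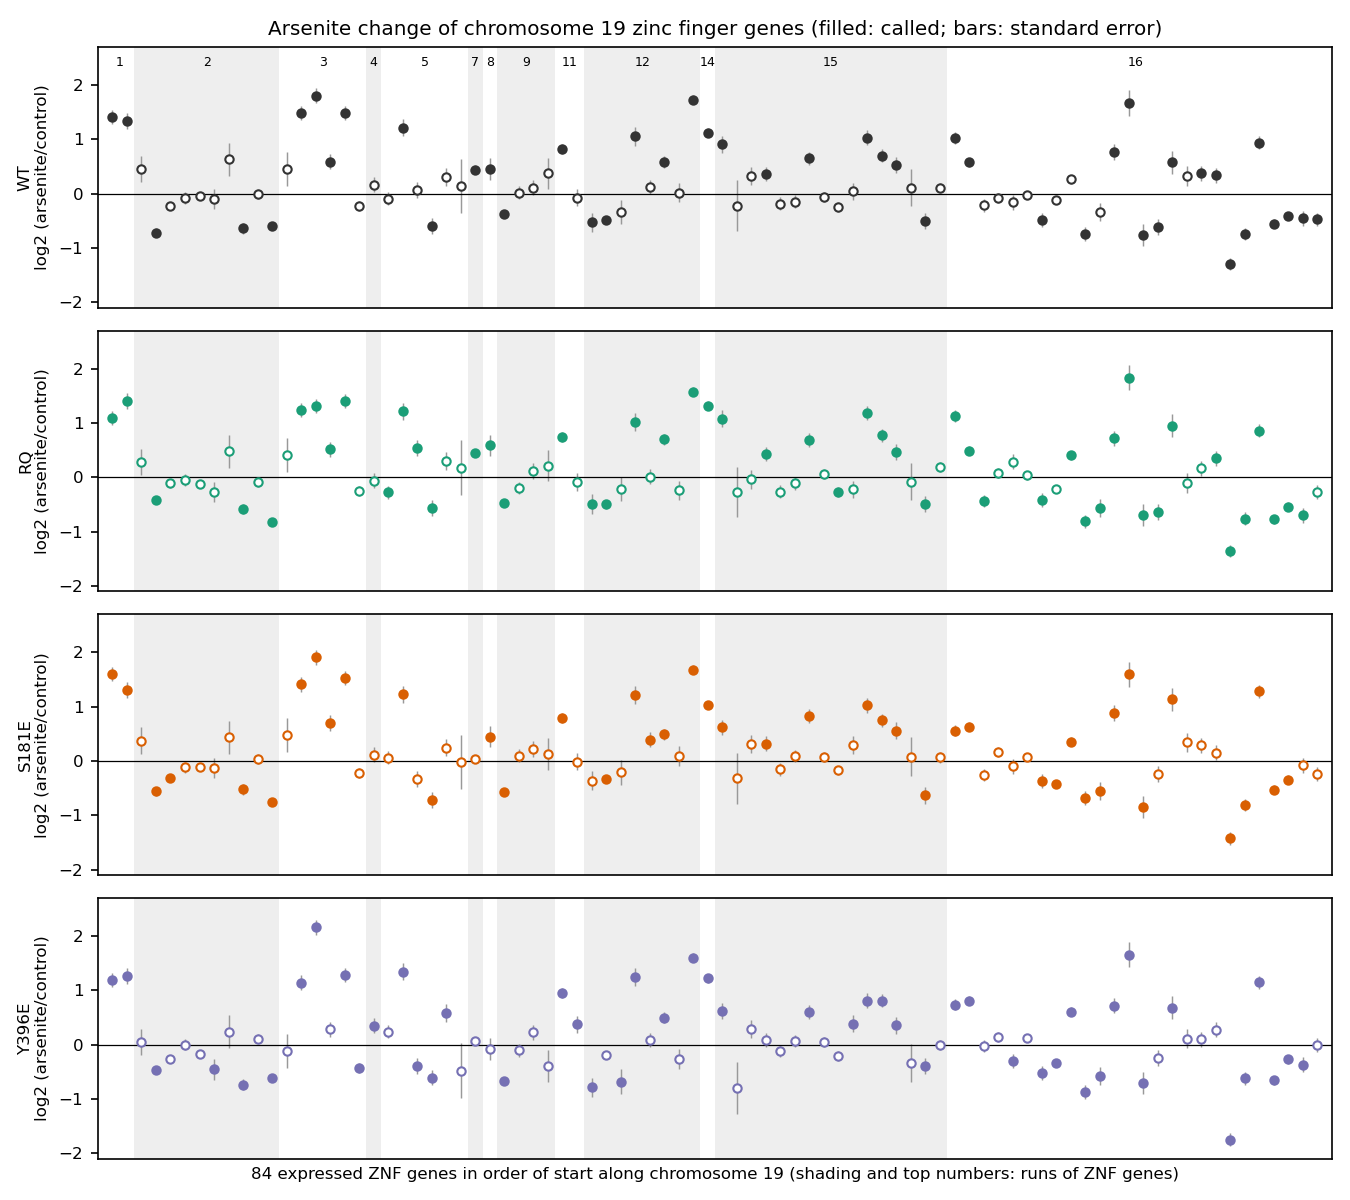
Log2 arsenite change of the 84 members in gene order along chromosome 19, one panel per population, with bars for SE, filled points for called changes and alternate shading for successive runs of ZNF genes. In WT the third run reaches 1.81 (ZNF823) and the last holds both 1.67 (ZNF548) and -1.29 (ZNF587B).

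Neighbours were compared directly. Among 71 pairs of members next to each other within a cluster the median absolute difference in WT was 0.547 on the log2 scale, beside 0.613 over all 3486 pairs of members. Of 20 neighbour pairs in which both were called, 15 moved the same way and 5 opposite (25.0%), where all called pairs gave 48.7% opposite. The share opposite was 40% of 25 pairs in RQ, 28.6% of 21 in S181E and 41.7% of 24 in Y396E, beside 49.7%, 48.5% and 50.5%. Pairs share genes and are not independent, so no test is given. Some hold a member that passed through arsenite alone and so had to rise, such as ZNF823 beside ZNF627. The shares were not taken without these. The Spearman correlation of change with start position over 84 members was -0.206 (WT), -0.208 (RQ), -0.139 (S181E) and -0.082 (Y396E).

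A run of 4 consecutive members shows how far neighbours can part. ZNF266, ZNF121, ZNF561 and ZNF562 start between 9.4 and 9.7 Mb on the minus strand, and their promoters, chosen for display after the motif search, share the 15 bases GCGGAAGTGACGTCA. This stretch was found in the promoters of 10 genes of the table. The 8 letters of the cAMP response element, TGACGTCA, are in capitals.
ZNF266, chr19:9435544-9435823, minus strand: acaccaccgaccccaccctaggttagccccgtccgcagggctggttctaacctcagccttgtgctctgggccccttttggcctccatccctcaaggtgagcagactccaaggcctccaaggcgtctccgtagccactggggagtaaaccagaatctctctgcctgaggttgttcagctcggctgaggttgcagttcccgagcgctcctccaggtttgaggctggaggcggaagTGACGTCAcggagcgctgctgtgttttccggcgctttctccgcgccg
ZNF121, chr19:9584475-9584754, minus strand: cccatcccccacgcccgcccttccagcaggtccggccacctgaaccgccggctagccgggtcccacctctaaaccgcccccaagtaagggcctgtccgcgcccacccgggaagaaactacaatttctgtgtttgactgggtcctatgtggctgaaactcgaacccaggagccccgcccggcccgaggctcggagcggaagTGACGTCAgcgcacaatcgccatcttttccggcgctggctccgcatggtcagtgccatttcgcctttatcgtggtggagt
ZNF561, chr19:9621203-9621482, minus strand: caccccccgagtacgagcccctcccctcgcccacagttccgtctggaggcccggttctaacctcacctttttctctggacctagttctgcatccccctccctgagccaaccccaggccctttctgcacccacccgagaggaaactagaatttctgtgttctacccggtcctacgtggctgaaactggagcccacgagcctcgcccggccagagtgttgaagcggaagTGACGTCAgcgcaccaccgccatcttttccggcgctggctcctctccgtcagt
ZNF562, chr19:9675071-9675350, minus strand: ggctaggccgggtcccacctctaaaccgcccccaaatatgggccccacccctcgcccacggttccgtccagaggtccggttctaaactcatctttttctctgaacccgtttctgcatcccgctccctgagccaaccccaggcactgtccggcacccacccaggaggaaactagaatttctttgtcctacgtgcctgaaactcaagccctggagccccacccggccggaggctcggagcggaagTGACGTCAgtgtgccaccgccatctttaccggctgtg
With the same stretch near the start, ZNF121 and ZNF562 fell in WT as given above. ZNF561 read 24.3, 25.5 and 26.8 CPM in control and 24.8, 26.2 and 25.2 CPM in arsenite, a change of -0.01 with overlapping groups. ZNF266 read 6.3, 7.5 and 6.27 CPM and then 10.6, 10.8 and 9.64 CPM, a change of 0.63 that was not called (SE 0.3, adjusted p = 0.058) although the groups did not overlap. In Y396E arsenite replicate 3 it read 1.65 CPM, against 8.14 and 9.05 in the other replicates, and in the fit without that library it rose by 0.70 in Y396E and was called. ZNF561 and ZNF562 are 84.3% identical in protein, and their changes in WT were -0.01 and -0.60.

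Members paired by highest protein identity moved in opposite directions about as often as in the same one, and not all such pairs are close relatives. For each member the closest other member was found by aligned protein identity, which was 27.1 to 91.2% with a median of 59.3%. Of the 84, 60 had it in their own cluster. Identity was taken over the shorter protein, so ZNF146, with 292 codons, became the closest of several members in other clusters. Among these were ZNF473 (52.7%), ZNF574 (42.5%) and ZNF579 (31.5%), and pairs that share ZNF146 are not independent. Of 64 such pairs 23 had both genes called in WT, 11 in the same and 12 in opposite directions. The median absolute difference was 0.601, beside 0.613 over all pairs. ZNF552 and ZNF587B, 87.5% identical, changed by 0.34 and -1.29. ZNF552 read 4.6, 3.67 and 5.08 CPM in control and 6.23, 5.21 and 5.53 CPM in arsenite, without overlap. ZNF264 and ZNF805, 85.3% identical, changed by -0.74 and -0.34, the second not called.

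Members were grouped by finger number. Of 33 members with 13 or more fingers 15 rose and 4 fell in WT with a median of 0.33. Of 30 with 9 to 12 fingers 7 rose and 8 fell with a median of 0.03, and of 21 with 1 to 8 fingers 6 and 6 with -0.03. Among all tested genes 35.7% rose and 35.2% fell in WT. In RQ, S181E and Y396E the members with 13 or more fingers had 15 and 5, 16 and 5, and 16 and 7 called higher and lower. All tested genes gave 36.4% and 35.0%, 31.5% and 32.7%, and 32.6% and 32.7%. Spearman correlations with finger number over 84 members were 0.302, 0.28, 0.32 and 0.283. The GC and length correction gave 14 higher and 11 lower in the top class in WT, with a median of 0.04. The other classes had -0.33 and -0.20. Relative to all genes these medians were 0.236, -0.133 and -0.004, where the main fit gave 0.34, 0.046 and -0.014. In RQ the corrected top class had 14 higher and 15 lower, with a median of -0.07 (0.122 relative to all genes). The top class holds ZNF823, ZNF14, ZNF224 and ZNF888, which passed through arsenite alone and have 15 to 18 fingers. Leaving out such genes it had 11 higher and 4 lower of 29 in WT with a median of 0.12, and 11 and 5, 12 and 5, and 12 and 7 in RQ, S181E and Y396E.

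Members with the KRAB stretch gave 22 higher and 10 lower of 59 in WT, with a median of 0.14. Members without it gave 6 and 8 of 25, with a median of -0.11. The called shares were 54.2% and 56.0%, against 70.8% of all tested genes (35.7% higher, 35.2% lower). All 6 genes that passed through arsenite alone have the stretch and rose, and leaving them out gave 16 higher and 10 lower of 53 with a median of 0.11. In Y396E 14 and 14 of these 53 were called. Under the GC and length correction all 59 members with the stretch gave 15 higher and 22 lower in WT, with a median of -0.16. The 25 without it gave 6 and 11, with a median of -0.28. Relative to all genes these medians were 0.035 and -0.084, beside 0.153 and -0.097 in the main fit. With library totals alone both WT medians were above 0, at 0.31 and 0.06. Exonic length had a Spearman correlation of -0.211 with the WT change over members and 0.175 over all tested genes. Level had -0.256 and -0.118, and GC content -0.049 and -0.056.

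**Figure D4:**
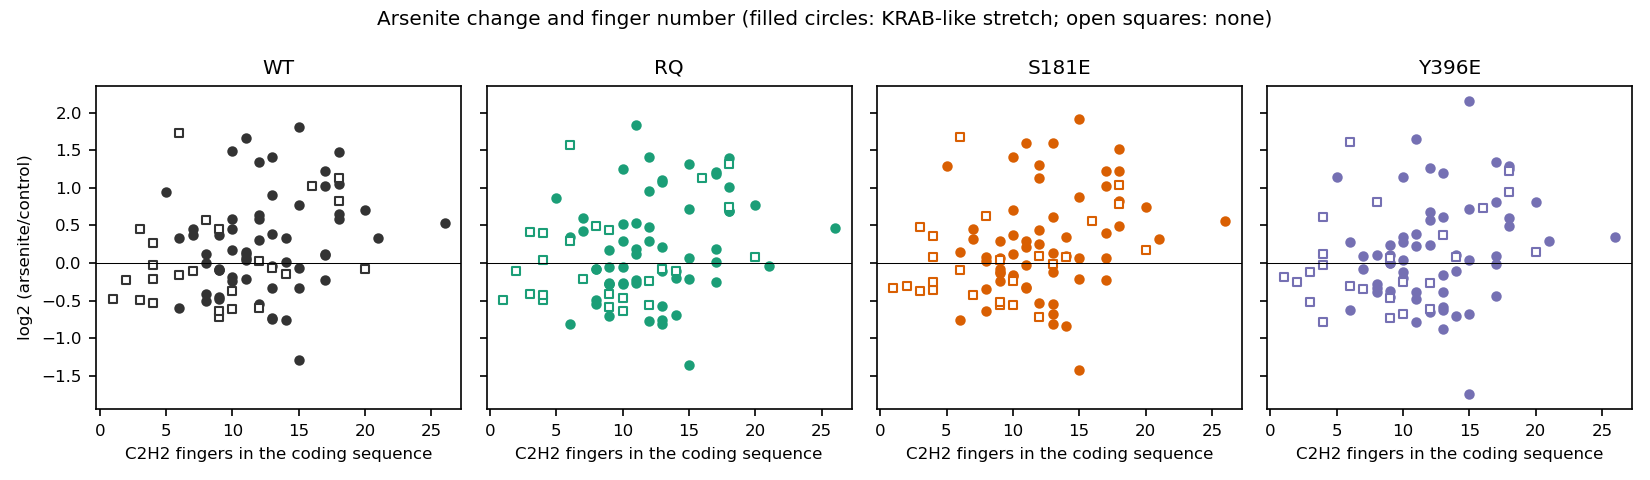
Log2 arsenite change of the 84 members (vertical axis) against the number of C2H2 patterns in the coding sequence (horizontal axis) in each population, with filled circles for members with the KRAB stretch and open squares for the others. Members with 13 or more fingers have a WT median of 0.33, and both ZNF823 (1.81) and ZNF587B (-1.29) lie at 15 fingers.

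Promoter letters were searched in 300 bases, 250 before and 50 after the start, on both strands. RefSeq promoters matched 75 of the 84 members, and the table held 27305 genes. GGGCGG was found in 73.3% of members and 48.3% of all genes, and CCAAT in 52.0% and 39.7%. TATAAA was found in 1 member, ZNF776 (1.33%), and in 14% of all genes. The AP-1 letters TGACTCA were found in 1 member, ZNF576 (6.05% of all genes), and TGACGTCA in 5 members (6.67%, all genes 2.25%), the 4 above and ZNF875. The heat shock element of 3 inverted units was found in ZNF83 alone (0.608% of all genes). Of 23 matched members that rose in WT 18 held GGGCGG and 16 CCAAT, and of 18 that fell 11 and 9. A match is a description of letters and not of binding.

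The mutants were next compared with WT in how far arsenite moved each member. The RQ response minus the WT response was called in 0 members (0.196% of tested genes) by edgeR's quasi-likelihood test and in 0 by DESeq2, and 4 members had an unadjusted p under 0.05 (3.53% of all genes). For S181E minus WT 3 members were called, all lower (14.2% of tested genes, 5.94% higher and 8.3% lower). For Y396E minus WT 1 was called higher and 3 lower (19.2% of tested genes, 9.33% higher and 9.88% lower). Without Y396E arsenite replicate 3 the Y396E count was 6 (22.3%), with 2 called in both fits. The median SE of a response difference over members was 0.185, against 0.131 for an arsenite change. These comparisons share the WT libraries.

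ZNF507, a gene without a KRAB stretch, was called for both glutamate mutants. In WT it read 25.8, 20.5 and 24.8 CPM in control and 32.2, 32.7 and 32.0 CPM in arsenite. In S181E it read 29.4, 30.2 and 27.4 CPM and then 30, 28.8 and 30.4 CPM, and in Y396E 25.9, 30.1 and 27.9 CPM and then 28.4, 31.3 and 28.1 CPM. WT control and arsenite libraries were apart, and those of both mutants overlapped. The response was lower than in WT by -0.41 in S181E (SE 0.106, adjusted p = 0.0122) and -0.38 in Y396E (adjusted p = 0.0142), or -0.34 without replicate 3, still called. In RQ the change was 0.44, as in WT.

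ZNF628 rose in WT from 10.9, 9.44 and 10.5 CPM to 20.7, 19.5 and 22.4 CPM, and in S181E from 13, 12.9 and 12.1 CPM to 19.2, 18.9 and 17.8 CPM. Both rises were called, and the S181E response was lower by -0.46 (SE 0.154, adjusted p = 0.0427). ZNF787 read 66.4, 58.9 and 51.3 CPM in WT control and 54.4, 53.4 and 55.8 CPM in arsenite, which overlap, and 71.3, 72.7 and 74.9 CPM against 52.1, 55.3 and 56.0 CPM in S181E, which do not. Its difference was -0.31 (SE 0.103, adjusted p = 0.04).

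In Y396E the fall of ZNF146 was deeper than in WT by -0.30 (SE 0.077, adjusted p = 0.00806), and -0.26 without replicate 3, which is under the fold threshold. The Y396E libraries read 206.9, 224.7 and 235.1 CPM in control and 138.4, 146.8 and 130.7 CPM in arsenite, without overlap. ZNF587B fell further in Y396E by -0.46 (SE 0.157, adjusted p = 0.0379), from 22.6, 20.6 and 23.9 CPM to 7.21, 6.72 and 6.06 CPM, and by -0.40 without replicate 3, still called. ZNF444, which has 4 fingers and is known to bind a scavenger receptor promoter, rose more by 0.34 (SE 0.118, adjusted p = 0.039). Its Y396E libraries read 16, 17.8 and 17.4 CPM in control and 25.6, 22.3 and 30.1 CPM in arsenite, and without replicate 3 the difference was 0.22 and was not called. Without replicate 3 the genes called were ZNF507, ZNF628 (-0.46), ZNF865 (0.35), ZNF805 (-0.52), ZNF548 (-0.56) and ZNF587B, listed for that setting and not by the naming rule. Of the 7 differences called with all libraries, the GC and length correction left only that of ZNF628 in S181E called. That fit moved the all-gene arsenite medians to -0.194 in WT, -0.086 in S181E and -0.09 in Y396E. It thus shifted the responses of all genes, and the lost calls are not a test of GC content and length.

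**Figure D5:**
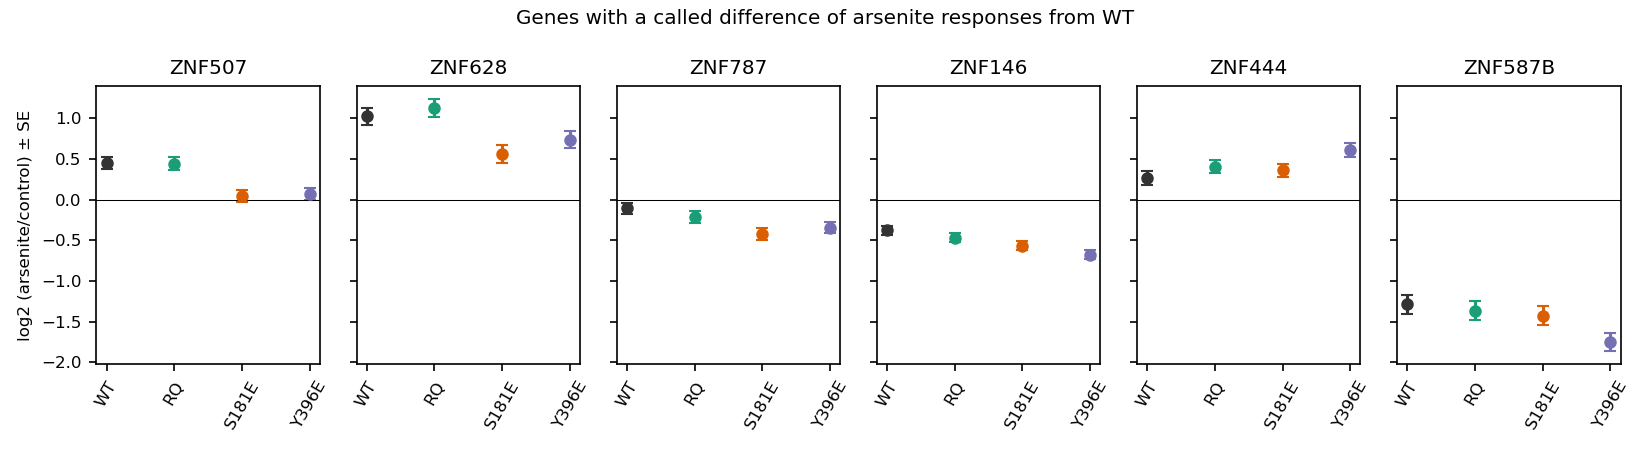
Log2 arsenite change (points, with SE bars) in each population for the 6 members with a called difference of responses. ZNF507 lies at 0.45 and 0.44 in WT and RQ and at 0.04 and 0.07 in S181E and Y396E.

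Levels of mutants and WT were compared within each treatment. RQ differed from WT in 0 members in control (1.2% of tested genes) by edgeR and in 0 by DESeq2, with 6 members at an unadjusted p under 0.05 (13.5% of all genes). The all-gene share was 0.812% higher and 0.391% lower. In arsenite RQ was higher in 2 members (1.37% of tested genes, 1.22% higher and 0.147% lower). S181E was higher in 5 members and lower in 2 in control (30.5%, 15.5% higher and 15.0% lower), and higher in 2 and lower in 1 in arsenite (13.7%, 5.47% higher and 8.24% lower). Y396E was higher in 3 and lower in 3 in control (27.9%, 14.1% higher and 13.8% lower), and higher in 4 and lower in 8 in arsenite (22.4%, 10.4% higher and 12% lower). Without replicate 3 it was higher in 2 and lower in 9 in arsenite (19.6%), with 7 members called in both fits. All share the WT libraries of their treatment. The GC and length correction, which also scaled the libraries again, gave 23 for S181E and 14 for Y396E in control, without all-gene shares beside them.

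ZNF358 was lower in both glutamate mutants. In control it read 26.0, 29.8 and 29.3 CPM in WT, 20.6, 19.2 and 20.9 CPM in S181E and 21.9, 20.8 and 21.2 CPM in Y396E, and 26.8, 30.3 and 29.8 CPM in RQ. S181E was lower by -0.48 (SE 0.079, adjusted p = 2.68e-05) and Y396E by -0.41 (adjusted p = 0.000194), without overlap with WT, and RQ overlapped WT. In arsenite S181E was lower by -0.32 and RQ higher by 0.33, a call that was lost in 7 of 37 alternatives beside a fold above 2, from 17.9, 15.9 and 17.8 CPM in WT, 13.4, 12.8 and 14.9 CPM in S181E and 20.4, 21.1 and 23.3 CPM in RQ.

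ZNF296 was higher in both glutamate mutants. In control it read 10.1, 10.9 and 9.24 CPM in S181E and 11.1, 10.7 and 10.5 CPM in Y396E, all above the 7.8 to 8.18 CPM of WT (log2 0.33 and 0.42, adjusted p = 0.00326 and 0.000358). In arsenite it was higher by 0.28 and 0.30 (0.32 without replicate 3). Its response to arsenite was not called as different. The other named differences in control were ZNF175 (0.45), ZNF787 (0.31) and ZNF440 (-0.41) in S181E, and ZNF304 (0.40), ZNF628 (0.29), ZNF865 (-0.38) and ZNF324 (-0.38) in Y396E. In each the 3 mutant and 3 WT libraries did not overlap, as in 57.2% and 52.4% of tested genes.

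In arsenite ZNF83 read 9.73, 9.99 and 10.5 CPM in S181E and 9.82, 10.0 and 9.49 CPM in Y396E, above 6.3, 7.3 and 8.01 CPM in WT (log2 0.48 and 0.43, and 0.45 for Y396E without replicate 3). The libraries did not overlap with WT, as in 52.7% and 43.7% of tested genes. ZNF473 was higher in RQ by 0.28 and lost that call in 21 alternatives. In Y396E arsenite ZNF875 (-0.78), ZNF302 (-0.63) and ZNF559 (-0.60) had the largest drops among called members. Each owed part of it to replicate 3, where they read 1.4, 3.08 and 2.98 CPM against 6.07 and 6.74, 6.1 and 8.19, and 5.63 and 6.62 CPM in the other libraries. Without it the differences were -0.33, -0.31 and -0.31, and the last was not called. ZNF274 (0.35) and ZNF428 (0.32) were higher, at 0.23 and 0.24 without replicate 3 and then not called.

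KRAB proteins act through a shared set of co-repressors. A list of 24, chosen with earlier results of these data known, was read in the same fits. In WT 19 rose and 1 fell, in RQ 19 and 2, in S181E 19 and 3, and in Y396E 18 and 3. Among all tested genes 35.7%, 36.4%, 31.5% and 32.6% rose and 35.2%, 35.0%, 32.7% and 32.7% fell. The WT median was 0.749, beside -0.013 over all tested genes. Under the GC and length correction 15 rose and 3 fell in WT with a median of 0.53. Relative to all genes the WT median was 0.72 in that fit and 0.762 in the main fit. TRIM28, the scaffold that KRAB domains bind, went from 421.3 ± 49.6 to 839.7 ± 15.7 CPM (SD, n = 3, log2 1.00). SETDB1 went from 18.3 ± 0.641 to 49.2 ± 1.79 CPM (log2 1.42), and its partner ATF7IP from 13.9 ± 0.965 to 39.1 ± 1.26 CPM (log2 1.49). MORC2, which acts with the HUSH silencing complex, changed by 1.76, and the HUSH members MPHOSPH8, PPHLN1 and TASOR by 1.04, 0.61 and 0.53. DNMT1, which maintains DNA methylation, went from 70.6 ± 5.98 to 244.8 ± 1.48 CPM (log2 1.79). CHD4, HDAC1 and HDAC2 of the NuRD complex changed by 1.35, 0.67 and 0.82.

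SUMO2, whose product modifies TRIM28 among many proteins, was the 1 called fall in WT, by -0.65. The HP1 genes CBX1, CBX3 and CBX5 changed by -0.03, -0.16 and -0.13 and were not called in WT, nor was DAXX. The response of the list was lower in the glutamate mutants, where the changes of all tested genes were also narrower. The all-gene quartiles of the arsenite change were -0.469 and 0.53 in WT, -0.385 and 0.419 in S181E and -0.386 and 0.433 in Y396E. Most of the list rose in WT, and it was not set beside other genes that rose as far. S181E minus WT was called lower in 9 (37.5%, against 8.3% of all tested genes) and higher in 0 of 24, with a median of -0.224, and Y396E minus WT lower in 8 (33.3%, against 9.88%) and higher in 0, with a median of -0.189, beside all-gene medians of -0.027 and -0.021. In S181E control 7 of the 24 (29.2%) were higher than in WT, against 15.5% of all tested genes, and in Y396E control 4 (16.7%), against 14.1%.

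Only 4 other genes of the chromosome with finger symbols (ZFP, ZSCAN, ZIM, ZIK, ZKSCAN or ZBTB, or PEG3) were tested. ZSCAN5A rose by 0.40 in WT, while ZBTB7A and ZBTB45 changed by 0.08 and -0.03 and were not called. ZFP36, caught by its symbol although its fingers are of the CCCH kind and bind AU-rich RNA, rose from 83.2 ± 1.11 to 268.3 ± 8.75 CPM (log2 1.69).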

How the data were processed

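Poly(A) RNA of 24 mCherry-IGF2BP1 libraries in 8 groups of 3 and of 2 parental libraries was analysed, with groups and replicate numbers taken from the sample labels. The deposited values are raw counts per gene. The authors aligned single reads to hg38 with STAR 2.7.11b and counted them by strand with featureCounts of Subread 2.0.6 on GENCODE release 46, per the file headers and the submitters' processing notes, without multi-mapping or multi-gene reads. Symbols and gene types came from GENCODE release 44 (99.136% of identifiers matched), and coordinates are those of the files.

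Counts of 10226 protein-coding genes above 5 CPM in at least 12 of 24 libraries were scaled by TMM factors (0.865 to 1.09) and fitted in edgeR 4.0.16 under R 4.3.3 with 1 mean per group (16 residual degrees of freedom). Each contrast went through glmQLFTest. Printed CPM are on the TMM-scaled protein-coding totals. Benjamini-Hochberg adjustment ran over all tested genes. The members and lists were chosen with earlier results of these data known. Named were the 10 largest rises and falls among called members whose libraries did not overlap in WT arsenite, the 5 largest called differences of responses and the 3 largest called differences between populations in each direction, the 5 highest levels per kilobase and the largest change in each direction per cluster. Members outside this rule that are given with a change (ZNF160, ZNF227, ZNF430, ZNF552, ZNF561, ZNF653 and ZNF805 among them) were chosen after their values were seen. Fingers, KRAB stretches and identity were read from translated reference coding sequences. The fits were tested on simulated counts, drawn without a shift of scale between groups. Between replicates the chi-square was 2.67 to 60.1 per gene, so no library was counted as a copy of another.

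Alternatives were DESeq2 1.42.0, its size factors, library totals alone, other level filters, a block for the replicate number, fits of only the groups compared or of all gene types, a GC and length correction (values for 100.0% of tested genes), other fold thresholds, the parental libraries included and leaving out each library. The GC and length offsets were taken from library totals with TMM factors applied beside them, so that fit scaled the libraries a second time. Counts without the members that passed through arsenite alone were added after seeing the data. Same-numbered libraries deviated together, with every pair over 0.1, in 2 of 10 comparisons only, RQ against WT in control and in arsenite. Dishes were plated independently and the labels do not say that a number marks a shared day. Libraries from immunoprecipitated RNA were not used here.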

Additional observations from a re-analysis of the deposited data

Results flagged for a closer look

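Differences between the arsenite responses of a mutant and of WT that passed the test of the difference itself (edgeR's quasi-likelihood test) are listed here, with their behaviour over 38 alternatives each. In S181E they were -0.406 for ZNF507, -0.461 for ZNF628 and -0.311 for ZNF787 on the log2 scale. In Y396E they were -0.377 for ZNF507, -0.303 for ZNF146, 0.345 for ZNF444 and -0.461 for ZNF587B.

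ZNF507 kept its call in 35 of 38 alternatives in S181E and in 34 of 38 in Y396E, with adjusted p from 0.00265 to 0.253 and from 0.00668 to 0.37. ZNF146 kept it in 32 of 38 (0.00265 to 0.504), ZNF587B in 27 (0.0078 to 0.2), ZNF628 in 26 (0.00329 to 0.127), ZNF444 in 24 (0.00447 to 0.173) and ZNF787 in 23 (0.00757 to 0.0984). No alternative turned the sign of any of the 7. The share of members called, 3 and 4 of 84, lay below the 14.2% and 19.2% of all tested genes, which were higher in level. Shares at a matched level were not taken.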

How the results depend on the processing

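No call of a named member turned its direction in any alternative. Over the named members and alternatives 6163 results kept their direction and side of the threshold, 54 passed it in addition and 301 no longer passed it. The filter at 10 CPM left 46 members and gave 14 (WT), 14 (RQ), 13 (S181E) and 13 (Y396E) higher, 14 lower in Y396E, medians of -0.069, -0.104, -0.051 and 0.005, and 7 differences of Y396E from WT in arsenite. A fold above 2 gave 12, 13, 13 and 11 higher and 1 lower in each, and 0 members in every response difference and in every difference between mutant and WT. The GC and length correction gave 33 lower in WT and 41 in RQ, medians of -0.222, -0.286, -0.035 and -0.045 (all genes -0.194, -0.196, -0.086 and -0.09), and 1 (RQ), 23 (S181E) and 14 (Y396E) differences in control. With the replicate block beside it, 33 and 40 were lower, medians were -0.219, -0.286, -0.034 and -0.051, 2 responses differed in Y396E, and 1, 24 and 14 members differed in control. The replicate block alone, in which pairs of a number were treated as matched, changed no count by more than 1.5 times, with 0 members for RQ in control and 2 in arsenite as without it. Library totals alone gave medians of 0.254 (WT), 0.197 (RQ) and 0.123 (Y396E), 10 differences of Y396E in control and 0 of RQ in arsenite. Without a CPM filter the RQ median was -0.007, with 1 (S181E) and 2 (Y396E) responses called and 0 for RQ in arsenite. All gene types gave an RQ median of 0.057 and 1 for RQ in arsenite, DESeq2's size factors 1 for RQ in arsenite, and no fold threshold 5 for S181E in arsenite. Fitting only the groups compared gave 11 lower in Y396E, 0 responses called in Y396E, and 4 (RQ), 9 (S181E) and 2 (Y396E) differences in arsenite. The causes were not tested.

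Leaving out each library in turn, rises and falls ranged from 25 to 35 and 18 to 20 in WT, 28 to 34 and 19 to 25 in RQ, 25 to 34 and 17 to 20 in S181E, and 24 to 30 and 19 to 24 in Y396E. Medians ranged from 0.039 to 0.101, 0.014 to 0.041, 0.058 to 0.126 and 0.016 to 0.107, with the WT median lowest without WT arsenite replicate 2 and the Y396E median highest without Y396E arsenite replicate 3 and lowest without its replicate 2. Response differences ranged from 0 to 0 (RQ), 1 to 3 (S181E) and 1 to 9 (Y396E), differences in control from 0 to 1, 6 to 10 and 3 to 11, and differences in arsenite from 0 to 3, 2 to 8 and 7 to 23. Without Y396E arsenite replicate 1 or 2, which leaves replicate 3 more weight, 21 and 23 members differed between Y396E and WT in arsenite, and 9 Y396E responses were called without replicate 2. Without Y396E arsenite replicate 3 the control counts were 1 for RQ and 11 for Y396E and the S181E count in arsenite was 8. Without WT arsenite replicate 2 Y396E differed in 7 in arsenite, and without WT control replicate 2 in 3 in control. The S181E response count was 1 without any one of S181E control replicates 1, 2 and 3, S181E arsenite replicates 1 and 2, WT arsenite replicates 1 and 3 and WT control replicate 2. The Y396E response count was 2 without Y396E control replicate 1, WT arsenite replicate 1 or 2 or WT control replicate 2, and 1 without Y396E control replicate 3. The RQ count in arsenite was 0 without any one WT arsenite library or RQ arsenite replicate 2 or 3, and 1 without any one S181E library or RQ control library, RQ arsenite replicate 1, WT control replicate 1 or Y396E control replicate 1. The median level of the members was 10.8 CPM, against 36.8 CPM over the tested genes, and the part of level in these counts was not tested.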

Other observations

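The 160 tested ZNF genes on other chromosomes were read in the same fits. Arsenite raised 75 and lowered 33 of them in WT (35.7% and 35.2% of all tested genes), 71 and 34 in RQ, 73 and 40 in S181E, and 70 and 35 in Y396E. Their median changes were 0.239, 0.24, 0.163 and 0.176 on the log2 scale, where the members on chromosome 19 had 0.085, 0.024, 0.086 and 0.056. The difference between both groups of genes was not tested. Response differences from WT were called in 0 of the 160 for RQ, in 6 (3.75%) for S181E, all lower, and in 13 (8.12%) for Y396E, 3 higher and 10 lower, against 0.196%, 14.2% and 19.2% of all tested genes.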
